A study of Mus musculus with 31 samples.

Results

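The metabotropic glutamate receptor genes Grm2, Grm3, Grm4, Grm5, Grm7 and Grm8 and the scaffold genes Homer1, Homer2 and Homer3 were followed in mouse cortex across 4 genotypes. They were chosen by name, as the receptor and scaffold genes at the centre of the mGluR theory of fragile X syndrome. Earlier results of these data were known at that choice. All 9 were found among the 20436 gene symbols of the count tables. The genotypes were wild type (WT), mice deficient in Fmr1 (FXS), mice deficient in Rps6kb1 (S6K1), and double knockout mice deficient in both genes (DKO), all at 29 to 34 days after birth. Fmr1 encodes the RNA-binding protein FMRP, whose loss models fragile X syndrome, and Rps6kb1 encodes the ribosomal protein S6 kinase S6K1. Both deficiencies are named by gene only, so the alleles, the strain, the sex and the number of animals behind each library are not given in the sources used here. The mRNA was measured by sequencing of polyadenylated RNA (16 libraries, 4 of each genotype), and translation by ribosome profiling (15 libraries, 4 WT, 5 FXS, 3 S6K1 and 3 DKO), which sequences the mRNA fragments that ribosomes protect from nuclease, called footprints. Translational efficiency is the footprint level relative to the mRNA level. Nothing says that replicates came from separate animals, so p-values measure the spread between these libraries, which may be partly technical.

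Metabotropic glutamate receptors are G protein-coupled receptors that tune glutamate synapses. Group I receptors, here mGluR5 from Grm5, couple to Gq and phospholipase C, sit around the postsynaptic density and can trigger a protein-synthesis-dependent long-term depression. Group II (Grm2, Grm3) and group III (Grm4, Grm7, Grm8) receptors couple to Gi/o and lie largely at presynaptic sites, where they limit transmitter release, with Grm3 also made by astrocytes. Homer proteins bind the tail of group I receptors and link them to Shank scaffolds and to inositol trisphosphate and ryanodine receptors. The mGluR theory holds that protein synthesis driven by group I receptors is excessive when FMRP is missing. The Homer1 gene makes long scaffold forms and a short, activity-induced form, Homer1a, which uncouples the receptors. Counts here are per gene and do not separate them.

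Promoter sequences of 3 members are shown because these genes mark the extremes of variation between mRNA libraries described below: Grm2 had the lowest and Homer1 the highest level in RNA batch 5 relative to the other batches, and Homer2 was the least variable member. Each line holds the 250 bases before the annotated RefSeq gene start on assembly GRCm38.p6, read 5′ to 3′ on the strand of the gene, from chr13:93303507-93303756 (plus strand), chr7:81706926-81707175 (minus strand) and chr9:106656110-106656359 (minus strand). Capitals mark TGACG, the half-site of the cyclic AMP response element, and GGGCGG, the GC box, each searched on both strands with overlapping matches counted.
Homer1: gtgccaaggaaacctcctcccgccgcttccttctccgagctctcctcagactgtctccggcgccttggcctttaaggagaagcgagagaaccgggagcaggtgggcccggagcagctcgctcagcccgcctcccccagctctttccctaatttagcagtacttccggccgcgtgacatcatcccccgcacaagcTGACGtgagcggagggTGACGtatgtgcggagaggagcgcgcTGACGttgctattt
Homer2: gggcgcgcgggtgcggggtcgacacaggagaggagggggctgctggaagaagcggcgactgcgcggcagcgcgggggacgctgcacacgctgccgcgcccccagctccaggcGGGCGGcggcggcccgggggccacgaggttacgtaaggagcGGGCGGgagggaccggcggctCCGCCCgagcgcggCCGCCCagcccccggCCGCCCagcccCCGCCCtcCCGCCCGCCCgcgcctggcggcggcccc
Grm2: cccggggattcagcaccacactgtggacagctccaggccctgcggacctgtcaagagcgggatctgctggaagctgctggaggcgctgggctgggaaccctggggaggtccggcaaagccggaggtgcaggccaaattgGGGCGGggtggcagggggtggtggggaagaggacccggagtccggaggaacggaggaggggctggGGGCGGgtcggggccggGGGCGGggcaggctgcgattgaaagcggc
The Homer1 window held TGACG 3 times, at 56, 40 and 14 bases before the start, and no GGGCGG. At least 3 matches to TGACG were present in 0.688% of the 32851 RefSeq promoter windows of this length, and at least 1 in 17.8%. Grm2 held GGGCGG 3 times and Homer2 8 times, both without TGACG, against 8.47% of all windows with at least 3 matches to GGGCGG and 32.7% with at least 1. Of the 7 members with a RefSeq promoter entry, Grm3 and Grm8 also had a window directly before the gene, each with 1 GGGCGG and no TGACG. A match is a description of the letters and not a measured binding site.

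Library totals were 12.1 to 17.3 M counts (M for mega) for mRNA, with a median of 14.1 M, and 16.6 to 34.9 M for footprints, with a median of 24.2 M. The targeted genes followed the labels: Fmr1 footprints were 117 ± 15.3 CPM (counts per M counts; SD, n = 4) in the WT group and 133 ± 27.7 (n = 3) in the S6K1 group. They were 7.85 ± 0.63 (n = 5) in the FXS group and 10.5 ± 2.37 (n = 3) in the DKO group. Rps6kb1 footprints were 28.9 ± 2.48 CPM in WT and 32.5 ± 2.72 in FXS, against 10.2 ± 2.58 in S6K1 and 11.6 ± 0.35 in DKO. All CPM here are scaled by the trimmed mean of M values (TMM). The labels assign RNA libraries to batches 5 to 8, each with 1 library of every genotype, and footprint libraries to batches 1 to 4, which are unbalanced (batch 1 holds no WT or FXS, batch 2 no DKO and batch 4 no S6K1). Batch was therefore a term in every model. Cortical excitatory neuron markers were present in all libraries (6 of 6 genes, summed mRNA level 3292 to 5311 CPM). The RNA libraries of batch 5 were low in several marker lists, neuronal ones included. Their summed microglial marker level was 147 to 201 CPM against 508 to 622 in the other 12. Footprint library WT replicate 4 also stood apart, with a summed cerebellar marker level of 108 CPM against 15.5 to 52.0 in the other 14.

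No receptor or Homer gene differed between genotypes in mRNA, footprints or translational efficiency at an adjusted p under 0.05 (edgeR quasi-likelihood test, Benjamini-Hochberg adjustment over all genes). The 9 genes were tested in 18 comparisons, 6 per measure, which gave 162 tests, 0 calls and a smallest adjusted p of 0.061, for Grm4 mRNA in DKO against WT. At an unadjusted p under 0.05 there were 21 tests, spread over 7 of the 9 genes. With the same batch term DESeq2 called 1 of the 162 tests (Grm4 mRNA in DKO against WT, adjusted p = 0.037, where DESeq2 called 7.63% of all genes) and limma voom called 0.

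The share of all genes called gives the scale for these counts. Of 14215 genes tested in mRNA, 0.155% were called in FXS against WT, 0.0211% in S6K1 against WT, 5.23% in DKO against WT, 0.0281% in DKO against FXS, 0.387% in DKO against S6K1 and 0% for the interaction of the 2 deficiencies, each beside 0 of 9 members. Of 13953 genes tested in footprints, the shares in the same order were 0.165%, 0.00717%, 0.366%, 0.0143%, 0.00717% and 0%, again beside 0 of 9 members. Of 13654 genes tested for translational efficiency they were 0.0952%, 0.0293%, 4.85%, 0.0146%, 0.00732% and 0%, beside 0 of 9. At an unadjusted p under 0.05 the members counted 2, 0, 4, 1, 1 and 0 in mRNA, beside 12.7%, 7.37%, 22.3%, 9.81%, 14.8% and 3.5% of all genes. They counted 0, 1, 2, 1, 1 and 0 in footprints, beside 9.87%, 8.74%, 17.1%, 6.19%, 8.67% and 3.07%, and 0, 1, 5, 1, 1 and 0 in translational efficiency, beside 13.4%, 7.51%, 24.9%, 8.36%, 14.6% and 4.14%. At these adjusted shares, also those of DKO against WT, 9 genes with no call carry little information. The interval of each difference is more informative than the count.

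The size of difference that the data leave room for was set by measure and gene. In mRNA, the members' log2 fold changes against WT ran from -0.16 to 0.26 in FXS, from -0.02 to 0.13 in S6K1 and from -0.09 to 0.31 in DKO. In footprints the ranges were -0.60 to 0.08, -1.27 to 0.29 and -1.17 to 0.34, and in translational efficiency -0.60 to 0.16, -1.38 to 0.27 and -1.10 to 0.31. The most negative value in each of these 6 footprint and efficiency ranges belonged to Homer3, the member with the fewest counts.

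**Figure D1:**
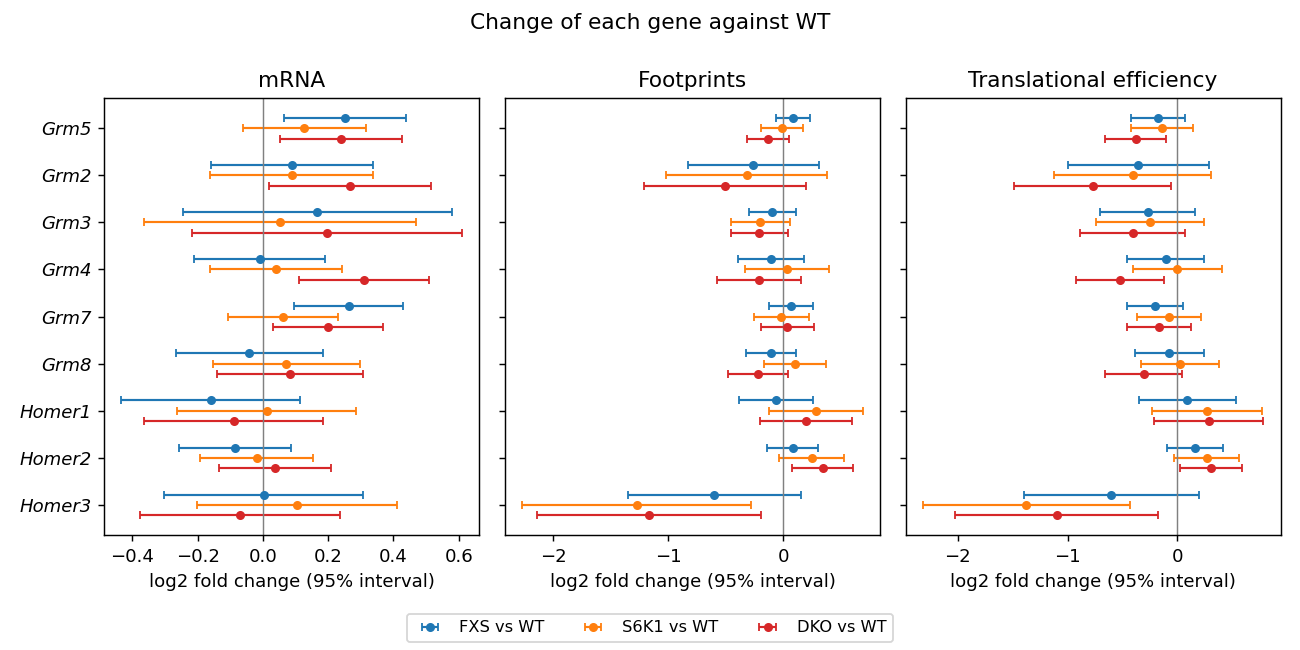
Log2 fold change of each gene in FXS, S6K1 and DKO against WT with its 95% interval from edgeR, for mRNA (16 libraries), footprints (15 libraries) and translational efficiency (31 libraries); the axis of the mRNA panel is narrower than the other two. Grm5, Grm7, Grm2 and Grm4 mRNA lie right of 0 in DKO, and the Homer3 footprint and efficiency intervals reach past -2. None of the 81 differences drawn passed an adjusted p of 0.05.

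Grm5 (chr7:87583981-88135063 in RefSeq, GRCm38.p6), the group I receptor gene of the list, was measured with 682 to 1476 mRNA counts and 2549 to 4788 footprint counts per library. Its mRNA in batches 5, 6, 7 and 8 was 51.3, 58.1, 70.0 and 73.1 CPM in WT and 58.3, 78.7, 86.7 and 77.1 in FXS, and 46.1, 70.4, 72.7 and 89.7 in S6K1 and 65.6, 78.1, 76.4 and 75.6 in DKO. The FXS and DKO libraries were each above the WT library of the same batch in 4 of 4 batches, by 0.08 to 0.44 and 0.05 to 0.43 on the log2 scale, although the ranges of the groups overlapped. The log2 fold change was 0.25 ± 0.09 (SE; unadjusted p = 0.0103, adjusted p = 0.25, edgeR) in FXS and 0.24 ± 0.09 (unadjusted p = 0.0143, adjusted p = 0.12) in DKO, and neither passed the adjusted threshold. DKO and FXS mRNA differed by -0.01 (95% interval -0.20 to 0.17).

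Grm5 footprints, unlike the mRNA, were not above WT in every shared batch: they were above in 2 of 3 in FXS and in 0 of 2 in DKO. They were 178 CPM in batch 2, 163 in batch 3 and 129.6 and 125 in batch 4 for WT, 181 and 188 in batch 2, 158 in batch 3 and 150.4 and 139.7 in batch 4 for FXS, 193 (batch 1), 196 (batch 2) and 139 (batch 3) for S6K1, and 184 (batch 1), 138 (batch 3) and 117 (batch 4) for DKO. The 2 DKO libraries that share a batch with WT libraries were below them, the third comes from a batch with no WT library, and the groups overlapped. The log2 fold change against WT was 0.08 ± 0.07 in FXS (95% interval -0.06 to 0.23) and -0.14 ± 0.09 in DKO (-0.32 to 0.05). Translational efficiency of Grm5 in DKO was -0.38 ± 0.13 relative to WT (unadjusted p = 0.0091, adjusted p = 0.088), and in FXS -0.18 ± 0.12 (adjusted p = 0.54). DKO against FXS gave -0.22 ± 0.08 in footprints (unadjusted p = 0.0198, adjusted p = 0.76).

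**Figure D2:**
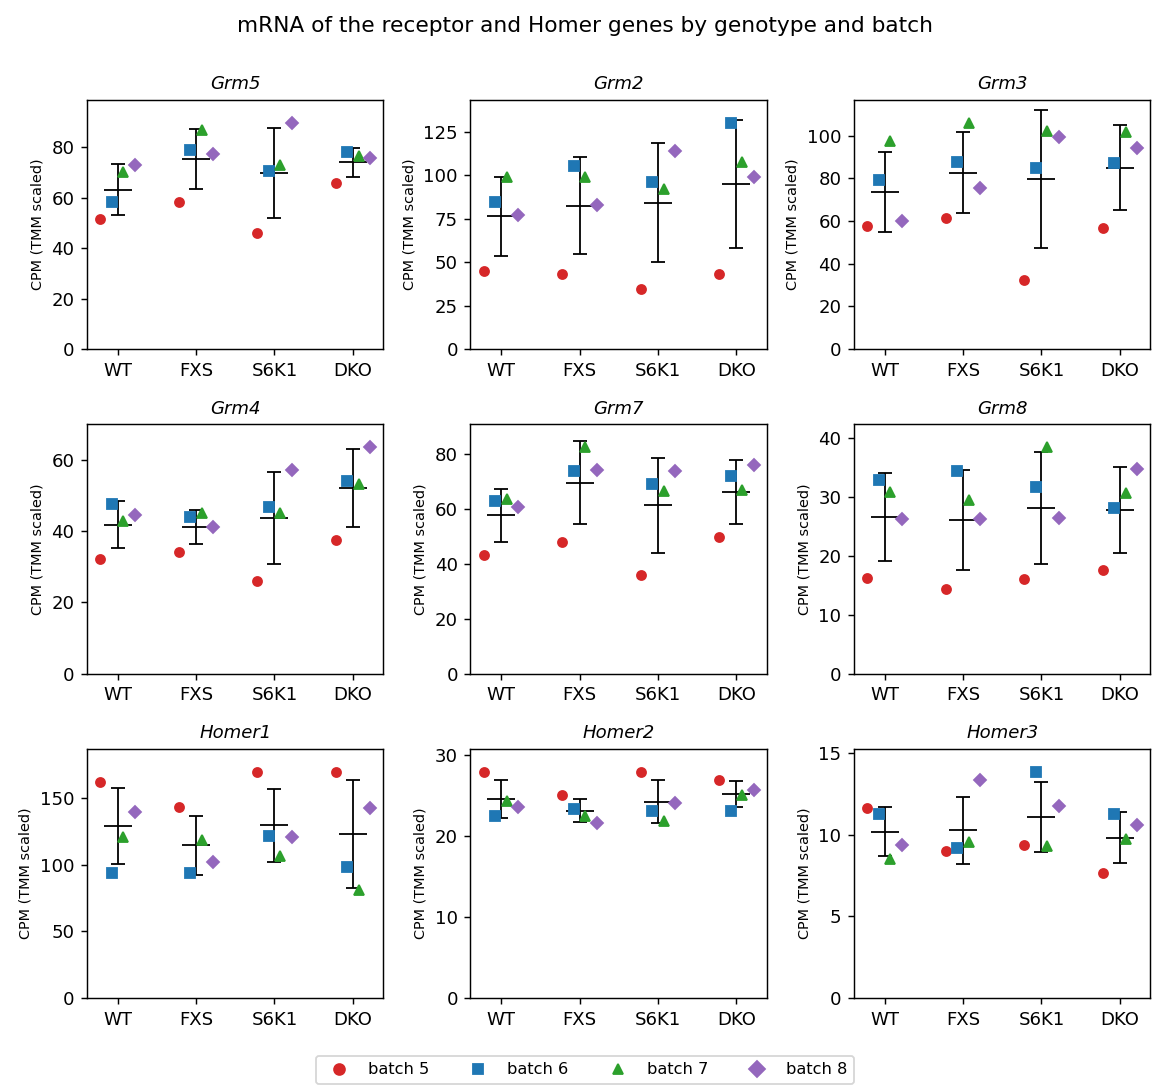
mRNA level of each gene in CPM by genotype, 1 point per library with shape and colour by batch, and the mean with SD in black (n = 4 per genotype). Batch 5 points are the lowest of their genotype for all 6 receptor genes and the highest for Homer1 and Homer2, in all 4 genotypes. Grm5 and Grm7 in FXS lie above the WT point of the same batch throughout.

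Among the group II genes, Grm2 (chr9:106644534-106656109) and Grm3 (chr5:9485236-9725352) had mRNA levels that varied more between batches than between genotypes. Grm2 mRNA in batches 5 to 8 was 44.8, 84.6, 98.9 and 76.98 CPM in WT and 43.2, 105, 98.8 and 82.7 in FXS, and 34.6, 96.2, 92.1 and 114 in S6K1 and 43.1, 130.3, 107 and 98.9 in DKO. All 4 libraries of batch 5 were thus below every other library. The within-genotype SD of Grm2 mRNA was at the 95.9th percentile of all genes tested, and with batch in the model the log2 fold change in DKO against WT was 0.27 ± 0.12 (unadjusted p = 0.0374, adjusted p = 0.19) and in FXS 0.09 ± 0.12. Without batch 5 the DKO value was 0.36 ± 0.12 (adjusted p = 0.11).

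Grm2 footprints were 54.5, 104.1, 51.9 and 75.9 CPM in WT replicates 1 to 4 and 59.1, 70.5, 44.8, 75.6 and 53.4 in FXS replicates 1 to 5. The S6K1 libraries held 54.4, 72.4 and 54.8 CPM, and the DKO libraries 66.9, 40.2 and 51.5. WT replicate 2 was the highest of the 15 libraries, and the groups overlapped. The differences from WT were -0.50 ± 0.32 in DKO footprints (95% interval -1.21 to 0.20) and -0.77 ± 0.34 in DKO translational efficiency (unadjusted p = 0.0358, adjusted p = 0.17). Without WT replicate 2 they were -0.06 ± 0.23 and -0.32 ± 0.27.

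Grm3 mRNA averaged 73.6 ± 18.6 CPM in WT and 82.7 ± 18.9 in FXS, and 79.7 ± 32.3 in S6K1 and 85.0 ± 19.8 in DKO (n = 4 each), and its footprints 112 ± 34.2 (n = 4), 106 ± 20.0 (n = 5), 130.1 ± 32.7 (n = 3) and 119 ± 36.2 (n = 3). Neighbouring genotype means of this gene lay within the larger of their SDs in both measures. The lowest mRNA value, 32.5 CPM, was the S6K1 library of batch 5. The intervals against WT ran from -0.25 to 0.58 in FXS mRNA and from -0.22 to 0.61 in DKO mRNA, wider than for any other member in mRNA. Summed astrocyte marker mRNA, 10 of 10 genes detected, was also low in batch 5, at 1133 to 1316 CPM against 1876 to 2404 in the other batches. So were the sums of oligodendrocyte, microglial, endothelial, thalamic and inhibitory neuron markers. Excitatory neuron markers were low too, at 3292 to 3643 CPM against 3696 to 5311. Immediate early gene, striatal and cerebellar sums overlapped with the other batches. The part of these markers in the Grm3 level was not tested. In bulk tissue, fewer cells of a type and less RNA per cell cannot be told apart.

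Grm4 (chr17:27422387-27513826), a group III gene, came closest to the threshold. Its mRNA in batches 5 to 8 was 32.3, 47.6, 42.9 and 44.5 CPM in WT and 34.3, 44.0, 45.2 and 41.3 in FXS, and 26.1, 46.9, 45.2 and 57.1 in S6K1 and 37.5, 54.2, 53.4 and 63.7 in DKO. The DKO library was the highest of the 4 genotypes in each of the 4 batches, while the pooled ranges of the genotypes overlapped. The log2 fold change in DKO was 0.31 ± 0.10 against WT (unadjusted p = 0.0038, adjusted p = 0.061), 0.32 ± 0.10 against FXS (adjusted p = 0.29) and 0.27 ± 0.10 against S6K1 (adjusted p = 0.19). In FXS and S6K1 against WT it was -0.01 ± 0.10 and 0.04 ± 0.10. The interaction, the amount by which the DKO value exceeds the sum of the single deficiencies, was 0.28 with a 95% interval of -0.00 to 0.56 (unadjusted p = 0.0524).

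The call on Grm4 mRNA in DKO against WT depended on the model. It passed with DESeq2 (adjusted p = 0.037) and with only the WT and DKO libraries in the fit (adjusted p = 0.047, where 4.52% of 13906 genes passed), and it was among the 8.12% of 12876 genes under 0.05 in the authors' deposited table (log2 fold change 0.30, adjusted p = 0.0447). DKO against S6K1 passed without RNA S6K1 replicate 4, at 0.39 (adjusted p = 0.033, where 2.74% of 14287 genes passed).

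Grm4 had few footprints, 116 to 306 counts per library. The levels were 12.7, 11.3, 8.44 and 10.3 CPM in WT replicates 1 to 4, and 12.1, 13.7, 7.09, 9.87 and 9.91 in FXS replicates 1 to 5. They were 5.39, 14.5 and 10.8 CPM in S6K1 replicates 1 to 3 and 5.72, 8.95 and 7.14 in DKO replicates 1 to 3. The 2 libraries of batch 1 were the lowest (5.39 and 5.72 CPM, an S6K1 and a DKO library) and the 4 libraries of batch 2 the highest (12.1 to 14.5 CPM), so that batch and genotype overlapped only in part. Summed striatal marker footprints, 8 genes, were also lower in batch 1 (140 to 245 CPM) than in batch 2 (537 to 818). In batches 3 and 4 the striatal sum averaged 277 and 365 CPM, while Grm4 averaged 9.55 and 9.12. Summed cerebellar marker footprints were likewise lower in batch 1 (15.5 to 21.2 CPM) than in batch 2 (41.6 to 52.0). The part of these markers in the Grm4 values was not tested. With batch in the model, DKO against WT was -0.21 ± 0.17 in footprints (95% interval -0.57 to 0.15) and -0.52 ± 0.20 in translational efficiency (unadjusted p = 0.0127, adjusted p = 0.10).

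**Figure D3:**
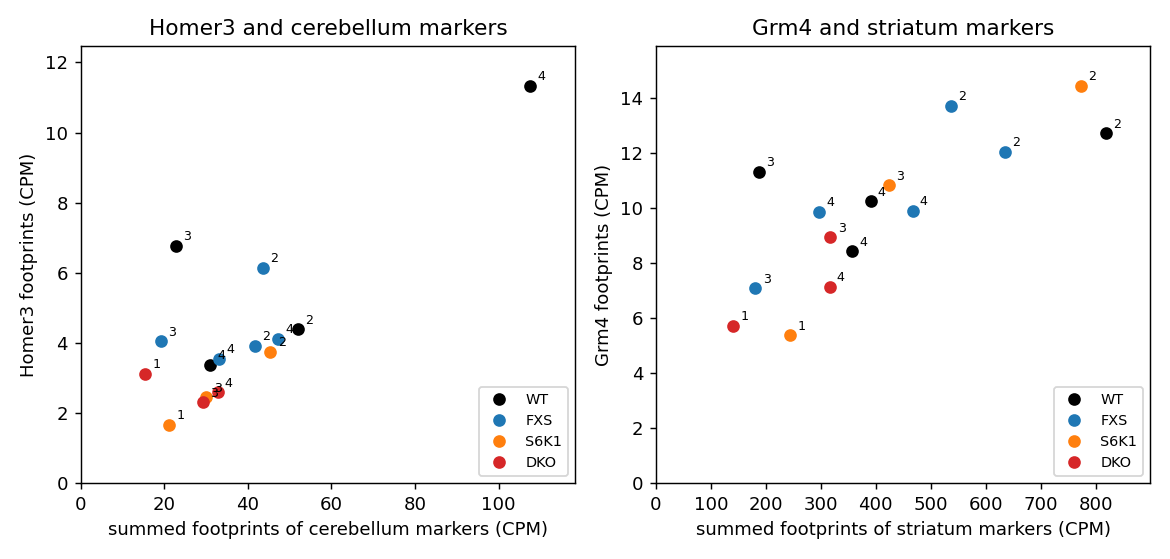
Footprint level of Homer3 against the summed footprints of 6 cerebellar markers (left) and of Grm4 against those of 8 striatal markers (right), both in CPM; 1 point per library, coloured by genotype and numbered by batch. WT replicate 4 (batch 4) stands alone at 108 CPM of cerebellar markers and 11.3 CPM of Homer3, and the batch 2 libraries lie at the upper right for Grm4.

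Grm7 (chr6:110645349-111567230), another group III gene, had an mRNA pattern like that of Grm5. Its mRNA in batches 5 to 8 was 43.1, 63.1, 63.7 and 60.8 CPM in WT and 47.9, 73.8, 82.6 and 74.3 in FXS, and 35.8, 69.2, 66.5 and 73.8 in S6K1 and 49.8, 72.1, 66.9 and 76.1 in DKO. FXS was above WT in 4 of 4 batches by 0.15 to 0.37 log2 units and DKO in 4 of 4 by 0.07 to 0.32. The log2 fold change was 0.26 ± 0.08 in FXS (unadjusted p = 0.00353, adjusted p = 0.17) and 0.20 ± 0.08 in DKO (unadjusted p = 0.0214, adjusted p = 0.14). With only WT and FXS libraries in the fit, Grm7 and Grm5 passed in FXS (adjusted p = 0.026 and 0.038), where 3.2% of 13933 genes did so.

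Footprints of Grm7 averaged 70.2 ± 11.4 CPM in WT and 75.3 ± 8.28 in FXS, and 82.6 ± 8.67 in S6K1 and 81.0 ± 23.4 in DKO. The differences from WT were 0.07 ± 0.09 in FXS, -0.02 ± 0.11 in S6K1 and 0.04 ± 0.11 in DKO. In this fit the 95% intervals reached no further than 0.27 log2 units in either direction for all 3 genotypes. That limit depends on the fit. Without footprint WT replicate 2 the values were 0.15 ± 0.09 in FXS and 0.14 ± 0.11 in DKO. Without the batch term DKO was 0.21 ± 0.17. Translational efficiency of Grm7 was -0.20 ± 0.13 in FXS (95% interval -0.46 to 0.05) and -0.17 ± 0.14 in DKO (-0.46 to 0.12).

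Grm8 (chr6:27275121-28135146), the third group III gene, had an mRNA mean of 26.5 ± 7.45 CPM in WT and 26.1 ± 8.54 in FXS, and 28.1 ± 9.46 in S6K1 and 27.8 ± 7.34 in DKO. Its 4 batch 5 libraries held 14.3 to 17.6 CPM and the other 12 held 26.2 to 38.4. Footprints were 15.9 ± 2.74 CPM in WT and 14.97 ± 1.42 in FXS, and 20.1 ± 3.64 in S6K1 and 15.4 ± 2.75 in DKO. The S6K1 and WT means were 1 of only 2 pairs of neighbouring genotype means, of 54 pairs over all members and both measures, that lay further apart than the larger of their 2 SDs. With batch in the model S6K1 against WT was 0.10 ± 0.13 (95% interval -0.17 to 0.37) and DKO against S6K1 -0.32 ± 0.13 (unadjusted p = 0.0211, adjusted p = 0.53).

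Homer1 (chr13:93303757-93405129) ran against the receptors between batches. Its mRNA in batches 5 to 8 was 162, 93.8, 120.9 and 139.7 CPM in WT and 143, 93.6, 119 and 102 in FXS, and 169, 122, 106 and 121 in S6K1 and 169.8, 98.1, 80.9 and 142 in DKO. The batch 5 library was the highest of each genotype, the reverse of the receptor genes, and no genotype stood apart. Against WT the log2 fold change was -0.16 ± 0.13 in FXS (95% interval -0.43 to 0.11), 0.01 ± 0.13 in S6K1 and -0.09 ± 0.13 in DKO (-0.36 to 0.18). FXS was below WT in 4 of 4 batches, by 0.003 to 0.45 log2 units.

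Because a short form of Homer1 is induced by activity, the summed mRNA of 14 immediate early genes (Arc, Fos, Npas4 and others) is given beside it. It was 712 to 908 CPM in batch 5 and 713 to 1588 in the others, and 0 of the 14 genes were called in mRNA in FXS, S6K1 or DKO against WT. Homer1 footprints were 223, 158, 213 and 187 CPM in WT replicates 1 to 4, and 193, 177, 241, 167 and 172 in FXS replicates 1 to 5. They were 161, 205 and 337 CPM in S6K1 and 179, 256 and 199 in DKO. The highest value was the S6K1 library of batch 3 and all groups overlapped, with differences from WT of -0.06 ± 0.15 in FXS, 0.29 ± 0.19 in S6K1 and 0.20 ± 0.18 in DKO (95% interval of the last -0.20 to 0.60).

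**Figure D4:**
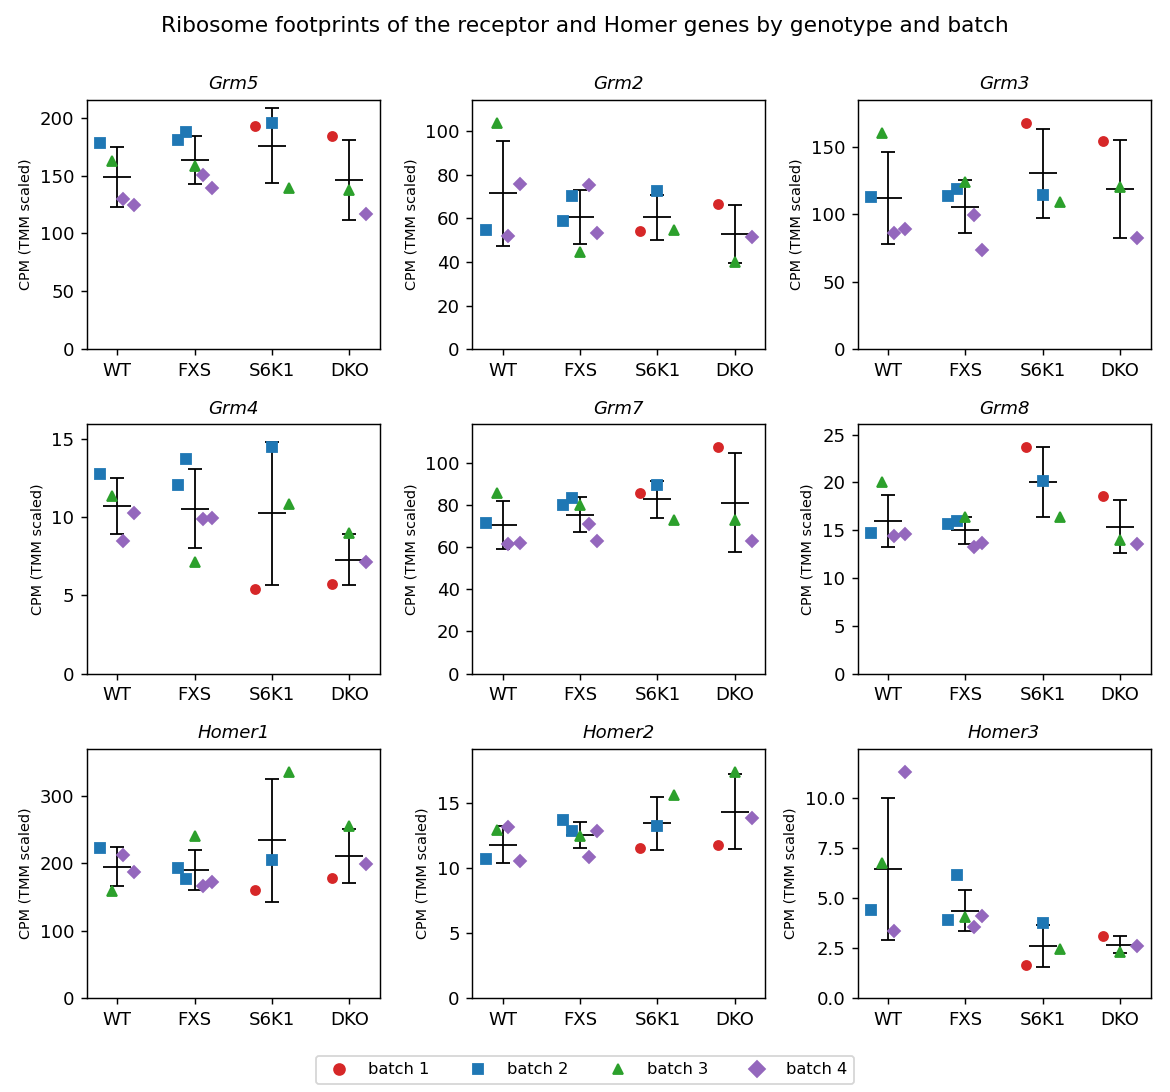
Footprint level of each gene in CPM by genotype, 1 point per library with shape and colour by batch, and the mean with SD in black (n = 4 WT, 5 FXS, 3 S6K1 and 3 DKO). In the 5 pairwise comparisons made, which leave out FXS against S6K1, Homer3 is the only gene with separated groups. Its DKO points, between 2.31 and 3.12, lie below the WT points between 3.38 and 11.3. The Grm8 points of FXS, at most 16.36, also lie below those of S6K1, at least 16.40. The share of all genes was not computed for that pair. Grm2 shows 1 WT library at 104.1.

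Homer2 (chr7:81600481-81706925) was the steadiest member in mRNA, with 16 libraries between 21.7 and 28.0 CPM and a within-genotype SD at the 13.8th percentile of all genes. Genotype means were 24.6 ± 2.38 in WT and 23.2 ± 1.48 in FXS, and 24.3 ± 2.62 in S6K1 and 25.2 ± 1.62 in DKO. The intervals against WT, -0.26 to 0.09 in FXS, -0.19 to 0.15 in S6K1 and -0.13 to 0.21 in DKO, were among the narrowest of the list. Footprints were 10.7, 12.9, 13.1 and 10.5 CPM in WT replicates 1 to 4 and 11.7, 17.4 and 13.8 in DKO replicates 1 to 3. DKO was above WT in the 2 batches that hold both, by 0.24 and 0.43 log2 units, and the model gave 0.34 ± 0.13 in footprints (unadjusted p = 0.0146, adjusted p = 0.20) and 0.31 ± 0.14 in translational efficiency (unadjusted p = 0.0362, adjusted p = 0.17). FXS and S6K1 footprints averaged 12.5 ± 1.02 and 13.4 ± 2.04 CPM.

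Homer3 (chr8:70282880-70294361) had the lowest counts, 102 to 187 in mRNA and 36 to 232 in footprints. Its mRNA averaged 10.2 ± 1.51 CPM in WT and 10.3 ± 2.06 in FXS, and 11.1 ± 2.17 in S6K1 and 9.81 ± 1.57 in DKO, with differences from WT of 0.00 ± 0.15, 0.10 ± 0.15 and -0.07 ± 0.15. Footprints were 4.40, 6.77, 3.38 and 11.3 CPM in WT replicates 1 to 4, 3.92, 6.15, 4.06, 3.56 and 4.13 in FXS replicates 1 to 5, 1.67, 3.75 and 2.45 in S6K1, and 3.12, 2.31 and 2.59 in DKO. All 3 DKO libraries were below all 4 WT and all 5 FXS libraries, orders shared by 7.22% and 2.1% of all genes tested. The other 8 members had overlapping groups in the 5 pairwise comparisons made, in both measures. FXS and S6K1 were not compared. Groups of all genes did not overlap, in either direction, in 3.34% of genes in mRNA in FXS against WT, 1.6% in S6K1 against WT, 6.15% in DKO against WT, 2.78% in DKO against FXS and 3.03% in DKO against S6K1, and in footprints in 1.74%, 9.91%, 16.3%, 3.73% and 8.45%.

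The fitted differences of Homer3 were large with wide intervals. In footprints they were -0.60 ± 0.34 in FXS, -1.27 ± 0.46 in S6K1 (95% interval -2.27 to -0.28, adjusted p = 0.45) and -1.17 ± 0.45 in DKO (-2.14 to -0.19, adjusted p = 0.23), and in translational efficiency -0.60 ± 0.38, -1.38 ± 0.46 (adjusted p = 0.54) and -1.10 ± 0.45 (adjusted p = 0.13). These values leaned on WT replicate 4. That library also held the highest footprints of all 6 cerebellar markers, with the Purkinje cell gene Pcp2 at 15.6 CPM and the granule cell gene Gabra6 at 10.9, against at most 0.66 and 2.22 in the other 14 libraries, and the highest summed immediate early gene footprints (4339 CPM against at most 3165). Without it the DKO differences were -0.70 ± 0.30 in footprints and -0.65 ± 0.33 in translational efficiency, the S6K1 differences -0.94 ± 0.30 and -1.05 ± 0.33, and the FXS differences -0.15 ± 0.24 and -0.15 ± 0.29. The part of these marker differences in the Homer3 values was not tested.

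In DKO against WT, 7 of 9 members had a positive mRNA log2 fold change, with a median of 0.20 against -0.00 for all genes, and 7 of 9 had a negative translational efficiency, with a median of -0.38 against -0.02. At an unadjusted p under 0.05, 4 members were higher in mRNA (Grm2, Grm4, Grm5 and Grm7), where 12.2% of all genes were higher at that level, and 4 were lower in translational efficiency (Grm2, Grm4, Grm5 and Homer3), where 14.6% were, and Homer2 was higher, where 10.3% were. Efficiency is the footprint difference minus the mRNA difference, so a positive mRNA value enters it with a minus sign. In FXS against WT 5 of 9 were positive in mRNA with a median of 0.00, and 7 of 9 negative in efficiency with a median of -0.18 against -0.01 for all genes. The 2 comparisons share the WT libraries. Of 6 cortical excitatory neuron markers, 3 were called higher in DKO against WT in mRNA and 2 lower in efficiency, and their summed mRNA level was 3643 to 5311 CPM in DKO and 3407 to 4641 in WT. At that adjusted threshold 3.17% of all genes were called higher in mRNA and 3% lower in efficiency. Of 9 oligodendrocyte markers, 6 were called lower in DKO against WT in efficiency (median log2 difference -0.71) and 3 in footprints, with a summed footprint level of 1908 to 2707 CPM in DKO and 2825 to 4087 in WT. In footprints 0.366% of all genes were called in either direction. Of 6 endothelial markers, 1 was called lower in mRNA (median -0.42), with a summed mRNA level of 25.03 to 83.3 CPM in DKO and 39.5 to 136 in WT. Of 6 inhibitory neuron markers, 1 was also called lower in DKO mRNA (median -0.01), beside 2.06% of all genes. No marker of the other lists was called in DKO against WT in any measure. The part of these markers in the members' values was not tested.

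The ratio of footprints to mRNA within a genotype, unlike the differences between genotypes, set the members far apart. In WT the log2 ratio, less the median of 13654 genes, was 1.55 ± 0.17 (SE) for Grm5, above 93.7% of genes, and 0.93 ± 0.20 for Homer1, above 82.3%. Grm3 followed at 0.91 ± 0.27, Grm7 at 0.61 ± 0.17 and Grm2 at 0.23 ± 0.34. Grm8 was at -0.36 ± 0.25, Homer3 at -0.42 ± 0.37, Homer2 at -0.72 ± 0.11 and Grm4 at -1.60 ± 0.17, the last above only 8.14% of genes. Grm5 and Homer1, and Homer2 and Grm4, were neighbours in this order whose gap exceeded the sum of their SEs, Grm2 and Grm8 lay at that limit, and the other neighbours were closer. Gene length cancels in this ratio only if both kinds of library were counted over the same stretch of each transcript.

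The order was similar in the other genotypes. In FXS, S6K1 and DKO, Grm5 stood above 93.2%, 95.1% and 88.9% of genes and Grm4 above 7.64%, 5.96% and 2.91%. Homer3 was above 34.3% of genes in WT and 7.79% in S6K1. These ratios are means over libraries with no batch term. The footprint batches are unbalanced, so differences in ratio between genotypes also hold differences between batches. Over 9 alternatives (another pseudocount, or 1 WT library left out) Grm5 stayed between the 92.3rd and 94.5th percentile and Grm4 between the 7.25th and 9.21st. Homer3 ranged from -0.72 to -0.19 (25.5th to 42.7th percentile) and Grm2 from 0.0048 to 0.37 (50.2nd to 63.8th).

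**Figure D5:**
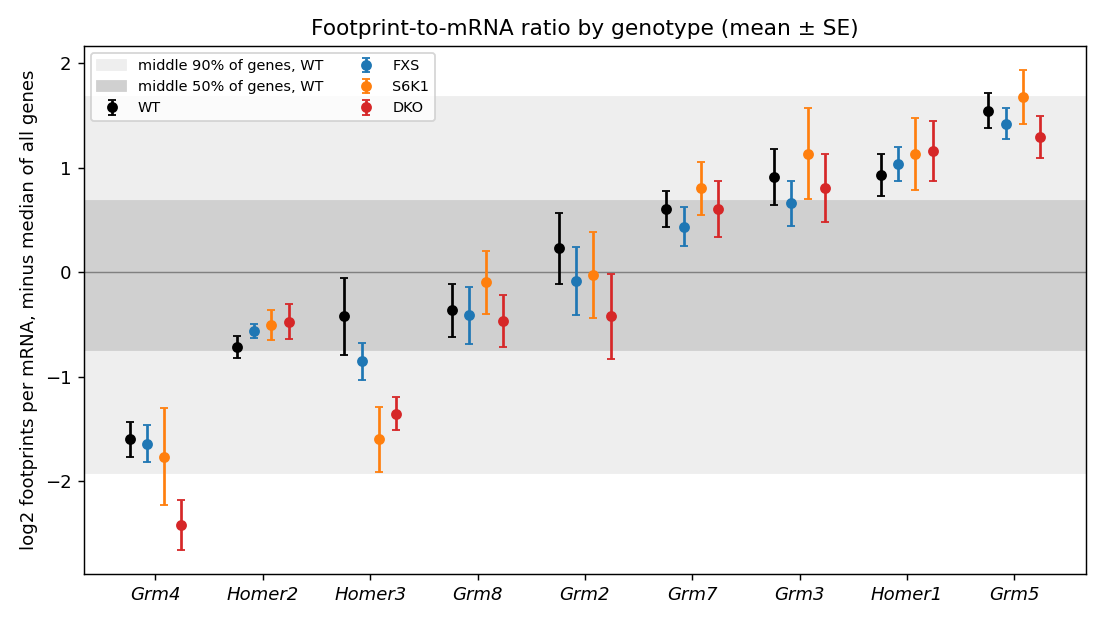
Log2 ratio of footprint to mRNA CPM of each gene by genotype, as the mean with its SE, less the median of all 13654 genes; the dark and light bands hold the middle 50% and 90% of genes in WT. Grm5 lies near 1.55 in WT, at the upper edge of the light band, and Grm4 in DKO lies near -2.42, below it. The ratios carry no batch term.

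Members also differed in which genes they varied with between RNA libraries. After removing batch means, log2 CPM of Grm5 and Grm7 had a Pearson correlation of 0.83 over the 16 libraries, Grm3 and Grm7 0.78, and the pairs among Grm2, Grm3 and Grm4 0.72 to 0.73. Grm8 had 0.23 or less with every other receptor gene, and Homer1 -0.15 to 0.25 with the 6 receptors. The genes most like Grm5 were App (0.97), the amyloid precursor protein gene, Slc12a5 (0.95), which encodes the neuronal potassium-chloride transporter KCC2, and Astn1 (0.94). The genes most like Homer1 were Lrrtm3 (0.89), a postsynaptic adhesion protein gene, Dnaja1 (0.86), a chaperone gene, and Pex3 (0.85). These are descriptions over libraries that share depth, dissection and genotype, chosen as the highest of 14214 correlations.

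Genes that act with the receptors were followed as 6 lists, 96 genes in all, each of which was tested. In DKO against WT, 10 rose and 3 fell in mRNA, beside 3.17% and 2.06% of all genes called in those directions, and 7 fell in translational efficiency, 7.29% beside 3%. The lists were chosen with earlier results of these data known, so these shares are a description and no measure of enrichment. In FXS against WT 0 of the 96 were called in mRNA or footprints and 1 in efficiency (Adcy1; 8 with DESeq2), and in S6K1 against WT 0 in any measure.

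Among the 23 Gq and phospholipase C effectors of group I receptors, Camk2b (0.25 ± 0.06, adjusted p = 0.027), a subunit of calcium/calmodulin kinase II, and the protein kinase C gene Prkce (0.23 ± 0.07, adjusted p = 0.048) rose in DKO mRNA. The endocannabinoid enzyme gene Dagla fell in efficiency (-0.62 ± 0.18, adjusted p = 0.042). Of the 16 Homer and Shank binding partners, all 3 ryanodine receptor genes fell in DKO mRNA: Ryr1 by 0.80 ± 0.17 (adjusted p = 0.017), from 30.0 ± 5.86 to 17.2 ± 2.61 CPM, Ryr2 by 0.30 ± 0.08 (adjusted p = 0.034), from 262 ± 22.2 to 212 ± 16.9 CPM, and Ryr3 by 0.52 ± 0.12 (adjusted p = 0.023), from 76.9 ± 6.70 to 53.6 ± 10.3 CPM. They encode calcium release channels of the endoplasmic reticulum. In the same list Dlgap4 rose in mRNA (0.25 ± 0.06, adjusted p = 0.026) and Shank1, whose protein binds Homer, fell in efficiency (-0.80 ± 0.20, adjusted p = 0.031).

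Of the 17 measured receptor regulators, Elfn1, which encodes a postsynaptic protein that recruits group III receptors across the synapse, rose in DKO mRNA by 0.42 ± 0.11 (adjusted p = 0.024), from 35.4 ± 7.66 to 47.9 ± 12.1 CPM, and Ncdn by 0.25 ± 0.07 (adjusted p = 0.040). Of the 13 genes tied to mGluR long-term depression, Mef2d (0.41 ± 0.08, adjusted p = 0.0069) and Mef2c (0.35 ± 0.07, adjusted p = 0.011), transcription factors of activity-dependent synapse elimination, and Map1b (0.27 ± 0.08, adjusted p = 0.040), an FMRP target in textbooks, rose in DKO mRNA. App and Mef2c fell in efficiency (-0.56 ± 0.15 and -0.51 ± 0.12). Of the 19 Gi/o effectors of group II and III receptors, Gnb2 rose in DKO mRNA (0.25 ± 0.06, adjusted p = 0.024). The adenylate cyclase gene Adcy1 fell in efficiency in DKO (-0.80 ± 0.14, adjusted p = 0.0081) and FXS (-0.67 ± 0.13, adjusted p = 0.0497) and in DKO footprints (-0.57 ± 0.12, adjusted p = 0.047), and the calcium channel gene Cacna1a fell in DKO efficiency (-0.63 ± 0.17, adjusted p = 0.035). Of the 8 glutamate transport genes, Slc17a7, the vesicular glutamate transporter of cortical excitatory neurons, rose in DKO mRNA against WT (0.33 ± 0.07, adjusted p = 0.016) and against S6K1 (0.36 ± 0.07, adjusted p = 0.039) and fell in efficiency (-0.63 ± 0.17, adjusted p = 0.040).

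These counts moved with single libraries and with the tool. In mRNA in DKO against WT, 13 of the 96 were called above, 1 to 8 when WT or DKO replicate 1, 2 or 3 was left out, 7 without batch 5 and 0 without the batch term, against 17 with DESeq2, where 7.63% of all genes were called. Calls over all genes fell too, from 743 in the main fit to 480 without batch 5. They were 362, 470 and 100 without RNA WT replicate 1, DKO replicate 1 and DKO replicate 3. Of the 13 genes called above, 6 were under 0.05 without batch 5 (Slc17a7, Mef2c, Mef2d, Ryr1, Elfn1 and Gnb2). In efficiency in DKO against WT the count was 7, and 0 without footprint library DKO replicate 2, 1 without footprint WT replicate 2 or RNA WT replicate 2, WT replicate 3 or DKO replicate 3, 2 to 4 without RNA DKO replicate 2, RNA DKO replicate 1 or footprint DKO replicate 3, 0 without the batch term and 12 without footprint WT replicate 3. DESeq2 gave 14 (8.56% of all genes). Calls over all genes in efficiency were 662 in the main fit, 2 without the batch term and 1096 without footprint WT replicate 3. For the remaining refits of DKO against WT they are not given here. In efficiency in FXS against WT, DESeq2 called 8 of the 96, all lower, where 1.13% of all genes were called, and 1 library left out gave 0 or 1. Adcy1 in FXS was called in 7 of 24 alternatives. Over these alternatives the mRNA and efficiency calls in DKO against WT and the FXS call kept their signs, and Mef2d was called in 14 of 15 and Adcy1 in DKO efficiency in 20 of 22. The least often called in DKO were Prkce mRNA in 3 of 15, Map1b mRNA in 5 of 15 and Dagla efficiency in 9 of 22. Camk2b, Ryr2, Dlgap4 and Ncdn mRNA were each called in 7 of 15.

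The authors' deposited tables cover FXS and DKO against WT and give log2 fold changes close to those above for the members. In the authors' deposited table of mRNA, Grm7 in FXS had a log2 fold change of 0.27 (adjusted p = 0.078) and Grm5 0.26 (adjusted p = 0.13), with 1.45% of 12876 genes under 0.05. In the authors' deposited table of footprints, Homer3 in DKO had -1.16 (adjusted p = 0.076) and Homer2 0.34 (adjusted p = 0.18), with 2.47% of 12083 genes under 0.05. In the authors' deposited table of translational efficiency in DKO, Homer3 had -1.09 (adjusted p = 0.17), Grm4 -0.52 (adjusted p = 0.35) and Grm5 -0.35 (adjusted p = 0.40), with 0.725% of 12004 genes under 0.05. These adjusted p were higher than those above, and the share was lower than the 4.85% found here. The SEs of Grm4 and Grm5, 0.29 and 0.21, were larger than those above, while that of Homer3, 0.42, was close. Grm4 mRNA in DKO, given above, was the member under 0.05 in these tables.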

How the data were processed

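The deposited files are tables of raw counts per gene symbol for the mRNA and the footprint libraries, named by the authors as coding-sequence counts. The submitters' processing notes name cutadapt 2.0, Bowtie2, TopHat2, RSEM and the build mm10, with no role or order, and the deposited counts are whole numbers. The authors' deposited comparison tables hold, per the file headers, a mean signal over libraries, a log2 fold change with its error, a test statistic (a score), a p-value and an adjusted p-value. The deposited lists of batches were not used here, since the labels give genotype and batch.

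Counts were tested with edgeR 4.0.16 (quasi-likelihood, robust, limma 3.58.1, R 4.3.3) with genotype and batch terms over all 16 RNA or 15 footprint libraries, TMM scaling (factors 0.956 to 1.09 in RNA and 0.957 to 1.04 in footprints) and the tool's default filter by genotype. Translational efficiency was the footprint minus the mRNA contrast in 1 model of 31 libraries. The p-values were adjusted over all genes tested and called at 0.05. The interaction is DKO minus S6K1 less FXS minus WT. CPM and intervals (95%) come from the same fits, and the footprint-to-mRNA ratio used a pseudocount of 0.5 CPM. Correlations used log2 CPM with a prior count of 2. The scripts were tested on simulated data. No library pair agreed within sampling noise. DESeq2 1.42.0 and limma voom were alternatives. The labels give each library a batch number and do not tie mRNA and footprint libraries to the same animals. The members and lists were chosen with earlier results of these data known. The text names every member, the 3 genes most correlated with Grm5 and with Homer1, the called genes of the 6 lists, and Fmr1 and Rps6kb1. Marker lists covered immediate early genes, astrocytes, oligodendrocytes, microglia, endothelium, excitatory and inhibitory neurons, striatum, thalamus and cerebellum.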

Additional observations from a re-analysis of the deposited data

Results flagged for a closer look

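Dixon's criterion marked 4 libraries that lay far from the rest of their group of 4 or 5 libraries. It was applied to 54 groups (a member, a measure and a genotype) and marks about 1 in 20 by chance. Homer3 mRNA in FXS replicate 4 was the highest of its group, at 13.3 CPM against 8.98 to 9.58 in the other 3. Grm7 mRNA in WT replicate 1, a batch 5 library, was the lowest of its group at 43.1 CPM against 60.8 to 63.7. Homer3 footprints in FXS replicate 2 were the highest of their group at 6.15 CPM against 3.56 to 4.13, and Grm8 footprints in WT replicate 2 were the highest of theirs at 20.0 CPM against 14.4 to 14.7. That last library also held the highest WT footprints of Grm2, Grm3 and Grm7.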

How the results depend on the processing

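Of 62 log2 fold changes of members that were recomputed, 1066 alternative values kept their direction and side of the threshold in 1027 cases, changed sign in 33 (19 results, the largest of them 0.26 in size) and became called in 6. No call was lost, since there was none. For counts of members called, DESeq2 gave 1 (Grm4; 7.63% of all genes called) and a fit of the WT and DKO libraries alone 1 (Grm4; 4.52%) in mRNA in DKO against WT, and the fit of WT and FXS alone gave 2 (Grm5 and Grm7; 3.2%) in mRNA. Leaving out 1 library gave 0 to 2 for mRNA in DKO against S6K1 (Grm2 and Grm4 without RNA S6K1 replicate 4, with 2.74% of all genes called) and 0 to 1 for translational efficiency in DKO against WT (Homer3 without footprint WT replicate 3, with 8.04%).

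The results that changed sign include main values as large as -0.26 (Grm2 footprints in FXS), -0.21 (Grm3 footprints in DKO) and 0.20 (Homer1 footprints in DKO). Grm4 mRNA in FXS was 0.0019 with RLE size factors and 0.0018 with DESeq2. Without batch 5, Grm8 mRNA in FXS was 0.0057 and Homer3 mRNA in DKO 0.11. Without the replicate block (the batch term), DKO against WT gave 0.084 for Grm3 footprints and 0.0063 for Grm7 efficiency, and no member was called. The fit of 2 genotypes gave -0.056 for Grm7 footprints in DKO.

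With 1 library left out, the mRNA ranges were -0.088 to 0.078 (Grm4) and -0.12 to 0.17 (Homer3) in FXS, and -0.043 to 0.18 (Grm8), -0.19 to 0.049 (Homer1) and -0.18 to 0.091 (Homer3) in DKO. Footprint ranges in FXS were -0.47 to 0.075 (Grm2), -0.18 to 0.0090 (Grm3), -0.17 to 0.032 (Grm4), -0.011 to 0.15 (Grm7), -0.21 to 0.0051 (Grm8) and -0.26 to 0.067 (Homer1), and in DKO -0.027 to 0.14 (Grm7) and -0.063 to 0.31 (Homer1). Efficiency ranges in FXS were -0.19 to 0.035 (Grm4), -0.17 to 0.043 (Grm8) and -0.10 to 0.22 (Homer1). The cause was not tested.

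The alternatives on the list counts and the footprint-to-mRNA ratio were chosen after seeing the data. Levels per length were not computed, since coding lengths were not used here, so no order of levels between genes is given. Depth limits Homer3 most, at 36 to 232 footprint counts per library.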
